A study of Mus musculus with 10 samples.

Results

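The lysosomal hydrolases, their membrane proteins and regulators, and the vacuolar proton pump were followed as 51 listed mouse genes, taken by symbol from a table of 55866 genes. Of these, 50 were matched by symbol, and all 50 entered the test. Atp6v0a3 was not matched and is not analysed here. The list held 10 proteases, 10 glycan hydrolases, 5 lipid hydrolases or cofactors, 1 phosphatase, 6 membrane proteins, 3 transcription factors and 16 pump genes, of which 15 were matched. The cells were a mouse line named iKCs in the labels, transduced with lentiviral vectors, sorted for the fluorescent marker mOrange and for viability, and sequenced as bulk polyadenylated RNA. Overexpression of miR-342-3p had 3 libraries and its control, a mutated form of the microRNA, had 2. A sponge against miR-342-3p, a transcript meant to sequester it, had 3 libraries and its control, a scramble sponge, had 2. All of them came from the 1 line and carried a vector, and no untransduced group is analysed here. The labels call the libraries biological replicates without saying whether cultures were kept apart, so the p-values cover only the spread among libraries, which may be technical.

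Lysosomes break down proteins, glycans and lipids with acid hydrolases, and macrophages use them to digest what they engulf. Their acidity comes from the vacuolar ATPase, in which the cytosolic V1 sector hydrolyses ATP and the membrane V0 sector moves protons. The d subunit joins the sectors and exists as a broadly expressed form, Atp6v0d1, and a form known from osteoclasts and kidney, Atp6v0d2, which in mice also takes part in the fusion of osteoclast precursors. Tfeb, Tfe3 and Mitf, transcription factors of the MiT family, activate many lysosomal genes through the E-box CACGTG.

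The microRNA under study pairs with its targets mainly through its seed, so its mature sequence is shown first, as given by RefSeq (GRCm38.p6, chr12:108658680-108658702, plus strand), with the seed, bases 2 to 8, in capitals.
mmu-miR-342-3p: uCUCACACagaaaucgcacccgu
Its seed match is GTGTGAG. Each gene's longest 3′ UTR was read on its own strand from GENCODE vM21 (GRCm38), and there 5 of 50 members (10%) held such a match, against 2876 of 21130 genes (13.6%). Only Galc held an 8mer, the match followed by A, which made 2% of the members and 4.16% of all genes. The sites of the members are shown because the microRNA could pair with them, with the match in capitals and 30 bases each.
Galc, 8mer, base 541 of 1647 in the UTR (chr12:98203382-98203411, minus strand): cttttggagttGTGTGAGAtgatggtggga
Psap, base 604 of 868 (chr10:60302322-60302351, plus strand): tggtcttttgtGTGTGAGgcccttgaccgt
Mitf, base 249 of 3174 (chr6:98018413-98018442, plus strand): gatttctccaaGTGTGAGctttctgagcaa
Mitf, base 328 of 3174 (chr6:98018492-98018521, plus strand): gggaaaacttgGTGTGAGctttgtctgtct
Ctsl, base 3262 of 4761 (chr13:64360818-64360847, minus strand): gaagacaactgGTGTGAGcttttgagacct
Acp5, base 33 of 293 (chr9:22126969-22126998, minus strand): tccgctaacggGTGTGAGggaggaggcgtc
The letters GTGTGAG were not found in the longest 3′ UTR of Atp6v0d2.

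The E-box CACGTG, already known from lysosomal genes as stated above, was present in the promoters of some members. Promoters of 300 bases around the gene start were read from RefSeq (GRCm38.p6) for 43 members. CACGTG, a palindrome and so the same on both strands, stood in 14 of the 43 (32.6%), against 2187 of 27025 genes (8.09%). The longer GTCACGTG, searched on both strands and always overlapping the shorter one, stood in 10 (23.3%) against 2.55% of genes. GTCACGTG followed directly by AC, the palindromic CLEAR element, was searched only as this exact string. It stood in 0 of the 43, against 0.37% of genes. Base composition differed too: 54 promoter entries of the members had a median of 14 CG dinucleotides and 56.1% G or C, against 7 and 52.7% in all 32851 entries. CACGTG itself holds a CG, and the part of composition in these shares was not tested. Of the pump genes other than Atp6v0d2, 11 had an entry and 4 held CACGTG, namely Atp6v0b, Atp6v0d1, Atp6v0e and Atp6v1a. The pattern was also present at the proteases Ctsa, Ctsd and Ctsl, the glycan hydrolases Gaa, Glb1, Gla, Naglu and Sgsh, the membrane glycoprotein Lamp1 and the channel Mcoln1. The promoters of Lamp1, with 4 copies, and of Atp6v0d1, with 1, are shown as examples, with CACGTG in capitals.
Lamp1 (chr8:13158911-13159210, plus strand): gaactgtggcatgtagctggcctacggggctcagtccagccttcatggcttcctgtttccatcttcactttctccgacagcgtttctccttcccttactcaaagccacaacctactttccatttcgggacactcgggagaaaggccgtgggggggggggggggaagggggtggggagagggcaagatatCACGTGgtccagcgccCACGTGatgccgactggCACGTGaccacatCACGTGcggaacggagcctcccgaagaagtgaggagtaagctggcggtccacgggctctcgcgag
Atp6v0d1 (chr8:105566015-105566314, minus strand): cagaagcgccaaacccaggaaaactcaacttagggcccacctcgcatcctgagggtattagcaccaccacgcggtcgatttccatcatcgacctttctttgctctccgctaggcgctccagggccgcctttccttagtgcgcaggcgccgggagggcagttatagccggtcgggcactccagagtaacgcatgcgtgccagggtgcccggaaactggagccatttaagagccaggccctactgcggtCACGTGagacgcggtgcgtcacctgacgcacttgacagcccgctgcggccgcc

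Depth was 25712732 to 59259988 counts per library. Reads over the Mir342 hairpin were at 8.22, 11.3 and 9.41 CPM (counts-per-million, scaled by library size) with overexpression and 2.86 and 3.22 CPM in the mutated control. They were 0 in all sponge and scramble libraries, where 3 counts would be at most 0.0892 CPM. How well reads of the mutated hairpin align there is not known, and the mature microRNA was not measured. Of 15 macrophage and Kupffer cell markers, 12 averaged above 1 CPM, led by Csf1r, but the Kupffer cell genes Clec4f and Timd4 were at 0 in all 10 libraries and Vsig4 reached at most 0.0934 CPM. No marker of stellate cells, hepatocytes or blood cells averaged above 1 CPM. The counts of sponge replicate 3 and scramble replicate 1 stood joined in the deposited table and were separated computationally. Overexpression replicate 1 and sponge replicate 3 stood apart for the pump: the geometric mean of its 14 members other than Atp6v0d2 was 278.9 and 277.8 CPM there, against 253.1 to 261.2 CPM in the other 8 libraries. Both lay above all other libraries for 8 of these 14 genes.

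Levels ranged widely between members and, for most of them, little between libraries. Per kilobase of exon, averaged over the 10 libraries, Psap, the precursor of the saposins that assist lipid breakdown, stood highest at 2251.3 CPM per kb. The cysteine protease Ctsb stood at 1271.7 CPM per kb and the aspartic protease Ctsd at 1127.3. At the low end were the phosphatase Acp5 at 0.131 and the protease Ctsk at 0.36 CPM per kb, both known as osteoclast enzymes. The pump genes other than Atp6v0d2 ran from 12.9 CPM per kb for Atp6v1h to 172.4 for Atp6v0b, and Atp6v0d2 stood at 1.82. The ratio of the highest to the lowest library in CPM was 2.45 for Atp6v0d2 and 1.10 (Atp6v0c) to 1.37 (Atp6v0a1) for the other 14 pump genes. Setting aside Atp6v0d2 and the scarce Acp5 and Ctsk, a choice made after the values were seen, it was 1.06 (Tfe3) to 1.62 (Ctsh) for 47 members, with a median of 1.19.

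**Figure D1:**
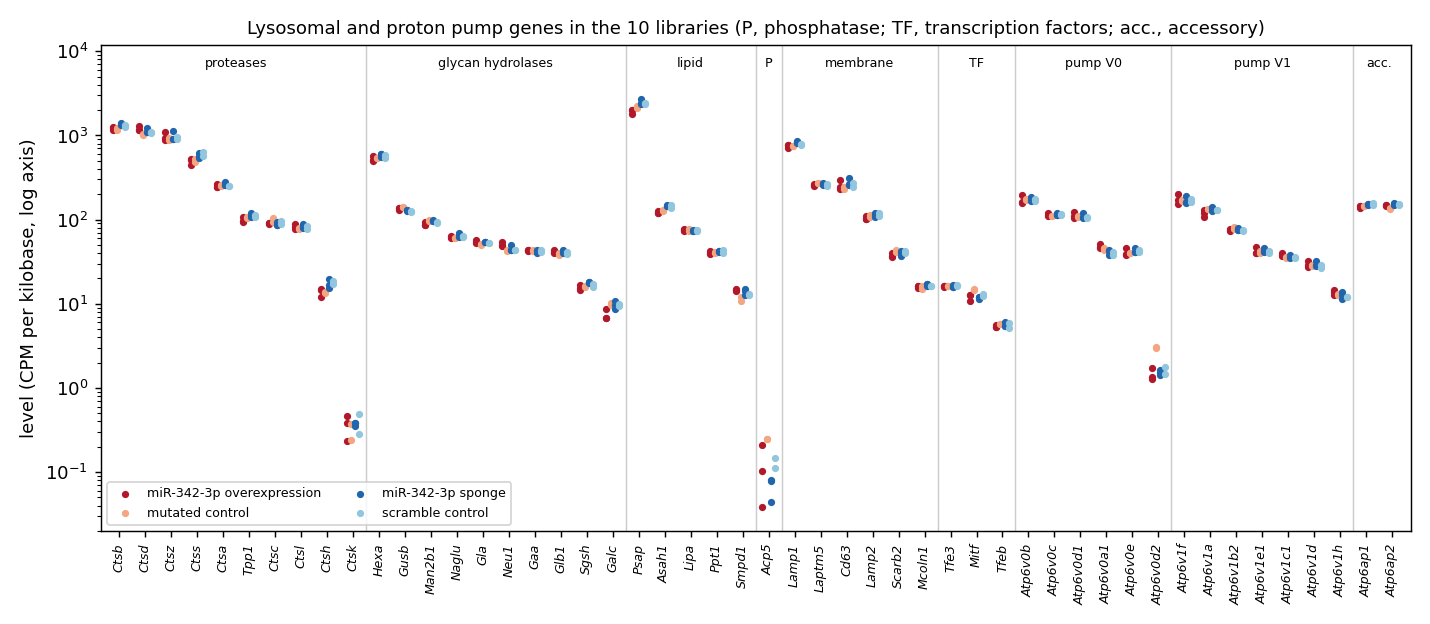
Level of each of the 50 members in the 10 libraries (points, coloured by group), in CPM per kilobase of exon on a log axis and grouped by role. Within each gene the libraries lie close together except for Acp5, Ctsk and Atp6v0d2, and Atp6v0d2 lies at 1.82 CPM per kb on average, below the other pump genes.

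Overexpression against its mutated control asked what the microRNA changes, and Atp6v0d2 alone of the 50 members passed the test there. Atp6v0d2 (chromosome 4, 19876841 to 19922605, minus strand, in the coordinates of the deposited table) had 3.65, 3.43 and 4.67 CPM with overexpression, against 8.42 and 8.03 CPM in the mutated control. It had 4.11, 4.45 and 3.91 CPM with the sponge, against 3.98 and 4.84 CPM with the scramble. Both mutated control libraries lay above the other 8, which overlapped each other, so the means, from low to high, were 3.91 ± 0.661 with overexpression, 4.16 ± 0.272 with the sponge, 4.41 ± 0.602 with the scramble and 8.23 ± 0.276 in the mutated control (CPM, SD). These levels rest on 120 to 401 counts per library. Atp6v0d2 was lower by 1.09 on the log2 scale with overexpression than in the mutated control (SE 0.13, edgeR adjusted p = 0.0093), a 2.14-fold difference. Over all genes, 0.539% of the 15767 tested were called in this comparison and 0.292% were called lower, and the count among the members is a single gene. In bulk RNA, fewer cells of a type and less RNA per cell cannot be told apart. The call ended without overexpression replicate 2 (adjusted p = 0.0617) and without either mutated control library (adjusted p = 0.206 and 0.124).

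Against the scramble control Atp6v0d2 did not pass. Its log2 fold change with overexpression was −0.21 (SE 0.14, edgeR adjusted p = 0.547), with a 95% interval from −0.52 to 0.11. The mutated control itself was at 0.89 against the scramble (SE 0.15, edgeR adjusted p = 0.116), where the libraries did not overlap. Against the mean of the sponge and scramble groups, a comparison added after seeing the data, Atp6v0d2 was 1.91-fold higher in the mutated control (edgeR adjusted p = 0.013). It alone of the 50 members was called there, against 0.228% of genes. Overexpression had −0.16 against that same mean (SE 0.12, edgeR adjusted p = 0.469). These comparisons share control libraries and are not independent of each other. The summed level of 6 endothelial markers was also highest in the mutated control. It was 21.3 to 24.3 CPM with overexpression and 28.8 to 31.1 CPM in the mutated control, 23.9 to 25.1 CPM with the sponge and 23.1 to 25.1 CPM with the scramble. Of these markers, Cdh5, Kdr and Stab2 averaged above 1 CPM and none was at 0 in all libraries. Most of the sum was Kdr, a receptor for vascular endothelial growth factor, with 18.4, 17.7 and 20.5 CPM under overexpression against 27.1 and 25 CPM in the mutated control, a difference that passed (edgeR adjusted p = 0.0352). With overexpression against the mutated control, 3 of the 4 tested markers were below 0, as was Atp6v0d2, and Cdh5 was at 0.21 (log2). With the mutated control against the scramble, 3 of the 4 were below 0 and Kdr was at 0.39. Only Kdr shared both directions with Atp6v0d2. The part of these markers in the Atp6v0d2 result was not tested.

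The paralog Atp6v0d1 did not share this pattern. It had 222.2, 197.6 and 186.6 CPM with overexpression, against 195.9 and 194.1 CPM in the mutated control. It had 190.1, 188.6 and 213.4 CPM with the sponge, against 194.2 and 186.8 CPM with the scramble. The groups overlapped in both pairs, and the highest values were in the 2 libraries in which most pump genes were high. Its log2 fold change with overexpression was 0.05 against the mutated control (SE 0.08, 95% interval from −0.13 to 0.23, edgeR adjusted p = 0.738). Per kilobase, the Atp6v0d2 level was 1.29% ± 0.312 of the Atp6v0d1 level with overexpression and 2.79% ± 0.0746 in the mutated control. It was 1.40% ± 0.176 with the sponge and 1.53% ± 0.251 with the scramble (SD).

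**Figure D2:**
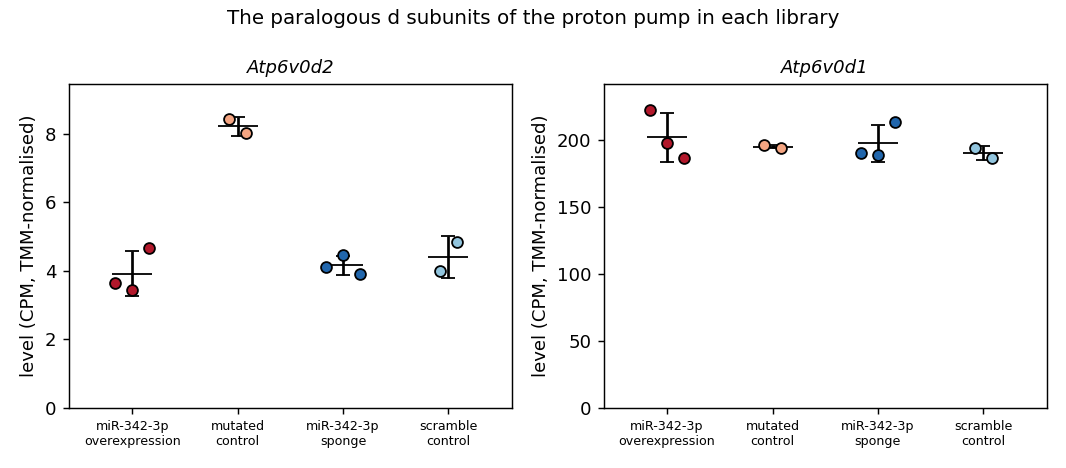
Levels of Atp6v0d2 and Atp6v0d1 in CPM (linear axes from 0), with a point per library, the group mean as a horizontal bar and the SD as the error bar. Atp6v0d2 stands at 8.42 and 8.03 CPM in the mutated control and at 3.43 to 4.84 CPM in the other 8 libraries, while the Atp6v0d1 groups overlap.

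The other pump subunits stayed within a narrow range. In the V0 sector they are the a1 subunit Atp6v0a1, the proteolipids Atp6v0b and Atp6v0c, Atp6v0d1 and Atp6v0e, and in the V1 sector they include the catalytic subunit Atp6v1a and the nucleotide-binding Atp6v1b2. Atp6ap1 and Atp6ap2 are accessory proteins. Against the mutated control the 14 log2 fold changes ran from −0.16 for Atp6v1a to 0.14 for Atp6ap2, with 95% intervals reaching from −0.34 to 0.30, and the smallest edgeR adjusted p was 0.223. None of these intervals reached the −1.09 of Atp6v0d2. On the log2 scale, Atp6v0d2 over the geometric mean of these 14 genes was −6.09 ± 0.28 with overexpression and −4.97 ± 0.05 in the mutated control, and −5.99 ± 0.16 with the sponge and −5.88 ± 0.23 with the scramble (SD). The difference was −1.12 between overexpression and the mutated control, −0.11 between sponge and scramble and 0.90 between the mutated control and the scramble. This difference and the comparison with the 14 intervals are given without a test, because the subunit was singled out with results of these data known.

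Of these genes, the lowest and the highest against the mutated control and the highest against the scramble follow. Atp6v1a had 655.4, 716.0 and 795.3 CPM with overexpression, against 816.2 and 797.7 CPM in the mutated control. The groups did not overlap, but overexpression replicate 3 was within 3 CPM of the lower control (log2 fold change −0.16, SE 0.08, edgeR adjusted p = 0.321). It had 848.0, 821.5 and 765.0 CPM with the sponge, against 788.3 and 781.0 CPM with the scramble, and overexpression overlapped both of these groups. Atp6ap2, which encodes the prorenin receptor, had 394.9, 382.8 and 389.9 CPM with overexpression, against 348.7 and 355.4 CPM in the mutated control (0.14, SE 0.06, edgeR adjusted p = 0.223). It had 388.5, 396.7 and 411.3 CPM with the sponge and 404.6 and 391.9 CPM with the scramble, so the mutated control was again the group apart, here below the rest. Atp6v0a1 had 311.8, 341.0 and 297.5 CPM with overexpression and 248.6 and 270.6 CPM with the scramble, with a log2 fold change of 0.29 (SE 0.08, edgeR adjusted p = 0.216). It had 298.4 and 282.9 CPM in the mutated control, which overlapped overexpression. Atp6v0c has annotated pseudogene copies that could share its reads, so its value is uncertain.

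**Figure D3:**
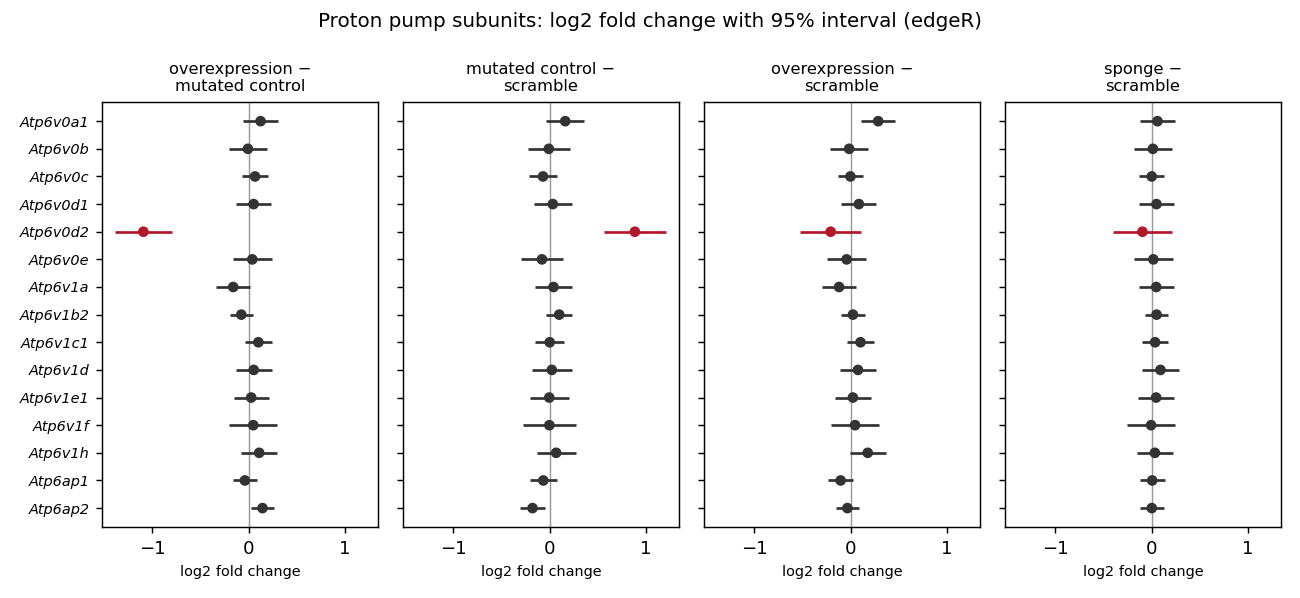
Log2 fold changes (points) with 95% intervals (lines) of the 15 matched pump genes in 4 comparisons, from edgeR, with Atp6v0d2 in red. Atp6v0d2 lies at −1.09 against the mutated control and the mutated control at 0.89 against the scramble, and the other 14 genes lie between −0.18 and 0.29 in all 4 panels.

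Among the hydrolases no enzyme passed the test against the mutated control. Over all 50 members, 10 had an unadjusted p under 0.05, 4 higher and 6 lower, against 18.2% of all genes, 9.11% in each direction. Groups did not overlap for 8 members on the higher side and 14 on the lower side, against 18.9% and 19.3% of all genes, 38.2% together. In all, 26 members lay above 0, against 48.8% of genes, and the median log2 fold change was 0.01, against −0.01 over all genes. Members above 0 and members with an unadjusted p under 0.05 were near the background shares. Non-overlap on the lower side, at 14 of 50, was above its 19.3%, and on the higher side, at 8 of 50, below its 18.9%. This difference was not tested.

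The proteases ran from −0.13 for Ctsc, cathepsin C, to 0.24 for the scarce Ctsk on the log2 scale, with a median of 0.03 and 6 of 10 above 0. Ctsd had the smallest p of them, with 3078.0, 2717.0 and 2699.5 CPM with overexpression, against 2390.7 and 2463.0 CPM in the mutated control. It had 2609.3, 2567.6 and 2868.3 CPM with the sponge, against 2547.1 and 2561.8 CPM with the scramble. All 3 overexpression libraries were above both mutated control libraries, and the mutated control was the lowest group (log2 fold change 0.22, SE 0.08, edgeR adjusted p = 0.192). Against the scramble, overexpression had 0.15 (SE 0.08, edgeR adjusted p = 0.433).

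The glycan hydrolases ran from −0.43 for Galc to 0.24 for Neu1, with 5 of 10 above 0. Galc, the galactosylceramidase that removes galactose from myelin lipids, carries the 8mer shown above. Galc had 101.8, 101.2 and 127.7 CPM with overexpression, against 144.2 and 153.0 CPM in the mutated control. It had 145.6, 160.2 and 128.1 CPM with the sponge, against 147.9 and 139.6 CPM with the scramble. The 3 overexpression libraries were the lowest of the 10, although overexpression replicate 3 was within 1 CPM of sponge replicate 3. The log2 fold change was −0.43 against the mutated control (SE 0.11, edgeR adjusted p = 0.113) and −0.39 against the scramble (SE 0.11, edgeR adjusted p = 0.233). Without overexpression replicate 3 it was −0.54 against the mutated control and passed (edgeR adjusted p = 0.0243), as it did with DESeq2 (−0.43, adjusted p = 0.0193). Those fits called 279 of 15681 and 500 of 15767 genes, against 85 of 15767 in the main fit. Neu1, a sialidase, had 202.2, 187.2 and 179.9 CPM with overexpression, against 162.2 and 159.7 CPM in the mutated control (0.24, SE 0.08, edgeR adjusted p = 0.159). It had 162.6, 161.3 and 185.1 CPM with the sponge, against 163.6 and 163.1 CPM with the scramble. Overexpression lay above both controls in every library, but sponge replicate 3 was above overexpression replicate 3.

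The lipid enzymes and their cofactor ran from −0.18 for Psap to 0.34 for Smpd1, with 1 of 5 above 0. Smpd1, the acid sphingomyelinase, had 49.8, 46.7 and 48.9 CPM with overexpression, against 40.3 and 36.1 CPM in the mutated control. It had 46.9, 42.1 and 49.4 CPM with the sponge, against 43.0 and 42.6 CPM with the scramble. Both mutated control libraries were below all 8 others (log2 fold change 0.34, SE 0.08, edgeR adjusted p = 0.0916). Against the scramble the value was 0.18 (SE 0.08, edgeR adjusted p = 0.367). Without sponge replicate 3 the comparison with the mutated control passed (0.34, edgeR adjusted p = 0.0455), as with DESeq2 (0.34, adjusted p = 0.0125). Those fits called 252 of 15741 and 500 of 15767 genes, against 85 of 15767 in the main fit.

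Psap and the acid ceramidase Asah1 were lower with overexpression than in the sponge and scramble libraries. Psap had 5437.8, 4916.4 and 5494.1 CPM with overexpression, 6512.6, 7460.8 and 6723.6 CPM with the sponge, and 6719.7 and 6525.9 CPM with the scramble. The mutated control lay between, at 5835.3 and 6148.5 CPM, and overlapped no other group. Against the mutated control Psap had a log2 fold change of −0.18 (SE 0.08, edgeR adjusted p = 0.263), and against the scramble −0.33 (SE 0.08, edgeR adjusted p = 0.184). Against the mean of the sponge and scramble groups it fell by 0.36 (SE 0.07, edgeR adjusted p = 0.0318). Asah1 had 410.2, 404.8 and 431.0 CPM with overexpression, 489.8, 507.0 and 492.4 CPM with the sponge, and 501.1 and 464.6 CPM with the scramble. The mutated control, at 429.7 and 444.9 CPM, overlapped overexpression, and Asah1 fell by 0.24 with overexpression against the mean of the sponge and scramble groups (SE 0.05, edgeR adjusted p = 0.0459). In that comparison, added after seeing the data, 2 of 50 members were called, against 1.24% of genes, and overexpression differs from that mean also in the type of vector. Against the scramble alone no member passed with edgeR (0.0444% of genes), 8 had an unadjusted p under 0.05 (13.4% of genes), and DESeq2 called Psap and Asah1.

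Acp5, the tartrate-resistant phosphatase, was near the limit of detection, at 2 to 25 counts. It had 0.422, 0.21 and 0.0778 CPM with overexpression, against 0.504 and 0.508 CPM in the mutated control. It had 0.0889, 0.158 and 0.164 CPM with the sponge, against 0.297 and 0.224 CPM with the scramble. The mutated control was highest, as for Atp6v0d2, but the log2 fold change with overexpression was uncertain (−0.89, SE 0.43, edgeR adjusted p = 0.301). The 95% interval ran from −1.85 to 0.06.

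**Figure D4:**
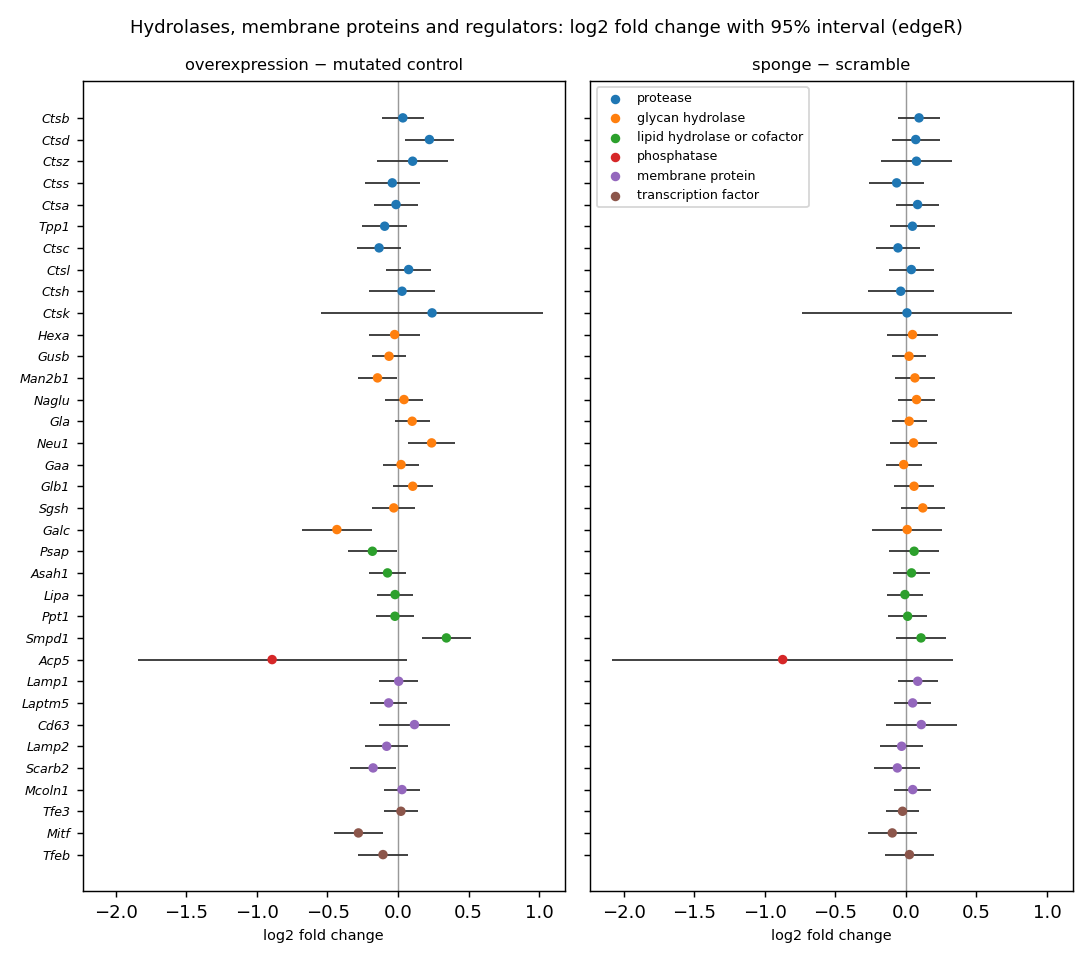
Log2 fold changes (points, coloured by role) with 95% intervals (lines) of the 35 members outside the pump, for overexpression minus mutated control and for sponge minus scramble. Galc lies at −0.43 and Smpd1 at 0.34 on the left, and the widest intervals belong to the scarce Ctsk and Acp5.

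The membrane proteins ran from −0.18 for Scarb2 to 0.12 for the tetraspanin Cd63. Scarb2, the receptor that carries glucocerebrosidase to lysosomes, had 229.8, 228.3 and 248.6 CPM with overexpression, against 260.4 and 272.0 CPM in the mutated control. It had 250.1, 269.8 and 231.4 CPM with the sponge, against 268.0 and 254.4 CPM with the scramble. Overexpression lay below both controls without overlap (log2 fold changes −0.18, SE 0.07, against the mutated control and −0.15, SE 0.07, against the scramble). The edgeR adjusted p-values were 0.251 and 0.406. Lamp1, the abundant membrane glycoprotein, had a log2 fold change of 0.00 with a 95% interval from −0.14 to 0.14 against the mutated control.

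Of the transcription factors, Mitf differed most. Mitf had 66.5, 78.6 and 79.1 CPM with overexpression, against 90 and 91.4 CPM in the mutated control. It had 75.9, 74.4 and 70.8 CPM with the sponge, against 77.5 and 80.1 CPM with the scramble. The mutated control was above all 8 other libraries, and the overexpression range overlapped those of sponge and scramble (log2 fold change −0.28 for overexpression, SE 0.08, edgeR adjusted p = 0.131). Mitf passed with DESeq2 (−0.28, adjusted p = 0.0492) and in edgeR with no filter on low counts (−0.27, adjusted p = 0.0416). Against the scramble, overexpression had −0.08 (SE 0.08, edgeR adjusted p = 0.679). Tfeb was at −0.11 (SE 0.08) and Tfe3 at 0.02 (SE 0.05) against the mutated control, and Tfe3 varied least of the 47 members.

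The 5 members with a seed match did not move alike. Galc and Psap were lowest with overexpression, Mitf and Acp5 were highest in the mutated control only, and Ctsl overlapped between all groups. Ctsl, cathepsin L, had 567.9, 506.2 and 529.6 CPM with overexpression, against 496.3 and 518.6 CPM in the mutated control. It had 518.0, 526.3 and 568.4 CPM with the sponge, against 544.8 and 501.7 CPM with the scramble (log2 fold changes 0.08 and 0.04, SE 0.07 each). None of the 5 passed the edgeR test with all libraries and the filter on low counts, for overexpression against the mutated control or sponge against scramble, while Galc and Mitf were called for overexpression by DESeq2 and without the filter.

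**Figure D5:**
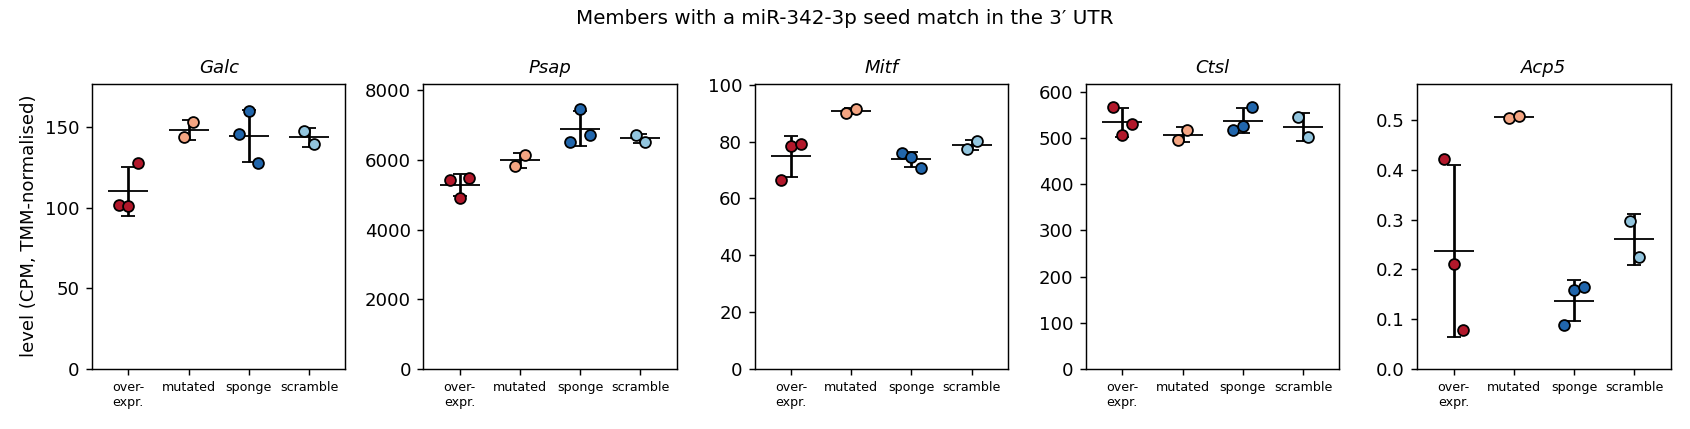
Levels in CPM (linear axes from 0) of the 5 members with a miR-342-3p seed match in the longest 3′ UTR, with a point per library, the group mean as a horizontal bar and the SD as the error bar. Galc and Psap lie lowest with overexpression, Mitf and Acp5 highest in the mutated control, and the Ctsl groups overlap.

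The sponge against the scramble asked what follows when the microRNA is to be sequestered, and no member passed. By edgeR 0 of 50 members were called, against 0% of genes, and 0 had an unadjusted p under 0.05, against 2.33% of genes. DESeq2 and limma-voom also called 0 members. The pump genes other than Atp6v0d2 had log2 fold changes from −0.005 to 0.09, with 95% intervals from −0.26 to 0.28, and Atp6v0d2 had −0.10 (SE 0.14, edgeR adjusted p = 1, 95% interval from −0.40 to 0.21). The highest value was that of Sgsh, a sulfatase of heparan sulfate breakdown, at 0.12. More members lay above 0 than below, 38 of 50, against 49.3% of genes, with a median of 0.04 against −0.00 over all genes. The number above 0 depended on the libraries used. It was 27, with a median of 0.00, without sponge replicate 3, and 29 without scramble replicate 2. It was 43 without scramble replicate 1, and 40 and 37 without sponge replicates 1 and 2. With sponge replicate 3 and scramble replicate 1 both left out it was 36, with a median of 0.04. Groups did not overlap for 8 members on the higher side and 2 on the lower side, against 6.9% and 8.3% of all genes, 15.2% together.

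Between the controls, the mutated control against the scramble gave 0 called members with edgeR, against 0.0254% of genes, and 6 with an unadjusted p under 0.05, against 6.47% of genes. DESeq2 called Atp6v0d2 alone. Groups did not overlap for 10 members on the higher side and 18 on the lower side, against 24.1% and 24.2% of genes, 48.4% together. The lowest value was that of the aminopeptidase Ctsh, with 60.0 and 61.8 CPM in the mutated control, against 83.2 and 76.7 CPM with the scramble (log2 fold change −0.39, SE 0.12, edgeR adjusted p = 0.462). Ctsh was also low with overexpression, at 66.5, 54.3 and 65.7 CPM, against 70.3, 87.7 and 75.7 CPM with the sponge. The cysteine protease Ctss also had its lower values in these groups, at 713.7, 613.3 and 689.4 CPM with overexpression and 666.0 and 716.9 CPM in the mutated control, then 737.5, 850.9 and 770.6 CPM with the sponge and 869.0 and 776.6 CPM with the scramble. For both proteases the vectors with the microRNA or its mutated form lay below all sponge and scramble libraries. This also held for Psap and Asah1, while the glycan hydrolase Gusb lay above them all. The share of all genes that separate in this way was not counted. The microRNA vector and sponge vector are different constructs.

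The difference of the overexpression and sponge effects, each against its own control, was tested directly. No member passed with edgeR (0% of genes), 3 had an unadjusted p under 0.05 (8.06% of genes), and DESeq2 called Atp6v0d2. The difference was −1.0 for Atp6v0d2 (SE 0.20, edgeR adjusted p = 0.245), −0.44 for Galc (SE 0.16, edgeR adjusted p = 0.54) and −0.21 for the mannosidase Man2b1 (SE 0.09, edgeR adjusted p = 0.61). In the test for any difference among the 4 groups Atp6v0d2 passed (edgeR adjusted p = 0.0156), 1 of 50 members against 0.419% of genes. At an unadjusted p under 0.05 there were 14 members, against 16.1% of genes.

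Other genes of the pathway gave no further call in any of these comparisons. Against the mutated control, 0 of 25 further lysosomal hydrolases passed, and Dpp7, a dipeptidase, had the smallest p (202.7 ± 12.6 CPM, SD, n = 3, against 171.1 ± 0.0355 CPM, SD, n = 2; edgeR adjusted p = 0.14). Of 22 further membrane proteins 0 passed, with the cation channel Tpcn2 at −0.31 (SE 0.09, edgeR adjusted p = 0.14). Of 10 further pump subunits 4 were tested and 0 passed. They ran from −0.23 for Atp6v1g2 to 0.12 for Atp6v1g1, which had the smallest p. For the mutated control against the scramble, Atp6v1g2 was the highest of the 4, at 0.30, and Atp6v1g1 the lowest, at −0.13. Atp6v1g2 thus shared both directions with Atp6v0d2. Tcirg1, which encodes the a3 subunit, was at 0.01 against the mutated control (SE 0.07). It had 894.5, 796.6 and 781.7 CPM with overexpression, against 831.5 and 801.0 CPM in the mutated control. Of 14 genes of lysosomal signalling and MiT control 0 passed, with Lamtor4 of the Ragulator complex at 0.22 (SE 0.10, edgeR adjusted p = 0.27). Of 10 osteoclast and cell fusion genes 8 were tested and 0 passed. Against the mutated control these 8 ran from −1.42 for Ocstamp to 0.65 for Mmp9 (log2), with 6 below 0. Against the scramble, overexpression had −1.48 for Ocstamp and 0.76 for Mmp9, so these genes did not move alike. The gene with the smallest p against the mutated control follows. Itgb3, the integrin beta 3 subunit of osteoclasts, averaged 1.12 ± 0.164 CPM with overexpression (SD, n = 3), against 1.85 ± 0.0535 CPM in the mutated control (SD, n = 2). It had 1.24 ± 0.223 CPM with the sponge and 1.20 ± 0.262 CPM with the scramble (edgeR adjusted p = 0.133 for overexpression against the mutated control).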

How the data were processed

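Whole-number counts of read pairs per gene, not normalized, were deposited by the authors. Per the file headers they came from featureCounts 2.0.1 with the GENCODE vM30 annotation, strand setting 0, so overlapping genes of either strand share reads (here 129 exon bases of Ppt1 with the abundant Cap1 and 774 of Ctsb with Fdft1). The submitters' processing notes name FastQC 0.11.6, Trimmomatic, STAR 2.7.6a, Subread and GRCm38, while vM30 belongs to a later build. The counting command names 12 libraries, and 10 are analysed here.

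Data lines have 15 fields for 16 names: the joined counts of sponge replicate 3 and a scramble library were split by negative binomial likelihood (dispersion 0.1, ratio at least 100), leaving out 51 genes and no member. In tests on 8 joined pairs of intact libraries at least 99.9248% of genes came back. Among genes that met the ratio and had a mean of at least 10 counts, at most 3 were wrong. Which scramble replicate is which follows header order only.

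Counts were tested with edgeR 4.0.16 (robust quasi-likelihood, TMM, expression filter by group, 10 libraries in 1 fit, 6 residual degrees of freedom, 15767 genes) in R 4.3.3. P-values were adjusted over all of these by Benjamini-Hochberg, threshold 0.05; a member passed, or was called, below it. SE is the log2 fold change over the square root of F. CPM use TMM factors. The fit was tested on simulated data.

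Members and lists were chosen with earlier results of these data known. Libraries are given in full for Atp6v0d2, Atp6v0d1, called members and the member with the smallest p per role; further members were named after their values were seen. Alternatives were DESeq2 1.42.0, limma-voom (limma 3.58.1), other scalings, no filter, a replicate block, a stricter split and each library left out.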

Additional observations from a re-analysis of the deposited data

How the results depend on the processing

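For overexpression against the mutated control, 1 member was called. DESeq2 called 4 (Galc, Smpd1 and Mitf beside Atp6v0d2), with 500 of 15767 genes called, against 85 in the main fit. The number of members called was 5 with no filter on low counts (Ctsd as well), where 1390 of 29774 genes were called. With any 1 library left out it was 0 to 2, the 2 being Galc beside Atp6v0d2 without overexpression replicate 3 and Smpd1 beside Atp6v0d2 without sponge replicate 3. Against the mean of the sponge and scramble groups it was 2, and Atp6v0d2, at −0.16 there, was not among them. The log2 fold change of Atp6v0d2 was −1.0 to −1.20 with any 1 library left out. For the mutated control against the scramble, 0 members were called; DESeq2 called 1, no filter 2, a fit of only these groups 4 (Ctsh, Ctss, Mitf and Atp6v0d2), leaving out 1 library 0 to 1, and the mean of the sponge and scramble groups in place of the scramble 1. Atp6v0d2 passed there with DESeq2 (0.89, adjusted p = 0.000233), no filter (0.89, edgeR adjusted p = 1.12e-05) and only these groups (0.88, edgeR adjusted p = 9.44e-05). Its value was 0.77 to 1.05 with any 1 library left out. It also passed without overexpression replicate 1 or 3 (0.88 in both, edgeR adjusted p = 0.0342 and 0.0482). The comparison with that mean, where Atp6v0d2 was called (0.93), was added after seeing the data. It uses the same mutated control libraries, so it is not an independent check. For overexpression against the scramble, 0 members were called, 2 with DESeq2 and 5 with no filter. For the difference of the effects, 0 were called, 1 with DESeq2 and 2 with no filter; Atp6v0d2 passed with both (−1.0, DESeq2 adjusted p = 0.00762 and edgeR adjusted p = 0.000383). For any difference among the groups, 1 was called, 6 with DESeq2, 10 with no filter and 0 to 2 with any 1 library left out. Over all genes, DESeq2 called 90 of 15767 for the mutated control against the scramble, no filter 149 of 29774 and only these groups 574 of 15157. For overexpression against the scramble DESeq2 called 234 and no filter 747. For the difference of the effects they called 48 and 331, and for any difference among the groups 849 and 1707. The main fit called 4, 7, 0 and 66 genes in these comparisons, in the same order. The cause of the changes with the processing was not tested. No named value that had passed changed direction. Upper-quartile and RLE factors, limma-voom, the stricter split and leaving out both libraries of the joined field kept every count of called members. The sponge value of Atp6v0d2, which did not pass, was 0.06 without scramble replicate 2.

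Correlations between same-numbered libraries in their deviations from the group means were −0.414 to 0.156 over 13 pairs by the title numbers. By the description numbers they were −0.414 to 0.1. In groups of 2 libraries the deviations mirror each other, so these correlations cannot decide whether same-numbered libraries were handled together. With a replicate block, 0 members were called for overexpression against the mutated control by either numbering, and 0 for any difference among the groups. Atp6v0d2 had −1.13 with the block from the titles (edgeR adjusted p = 0.094) and −1.06 with that from the descriptions (edgeR adjusted p = 0.115). Groups of 2 and 3 libraries limit all of these statements, and Acp5 and Ctsk had too few counts for differences within their wide intervals to be detectable at this depth.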
